A study of Mus musculus with 14 samples.

Results

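The expression of 10 genes for matricellular proteins and proteoglycans (Postn, Tnc, Thbs1, Thbs2, Sparc, Fn1, Bgn, Dcn, Lum and Vcan) was followed in mouse embryonic fibroblasts undergoing cardiac reprogramming. The genes were taken by symbol: a feature of the array was a member if its single gene symbol was one of the 10, which gave 1 feature for each gene, 10 of 22206 features other than controls. Each had a value in every array.

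The cells had been transduced with retroviruses for Gata4, Hand2, Mef2c and Tbx5 (GHMT) and were grown on hydrogels for 2 weeks before RNA was taken. It was hybridised to Clariom S Mouse arrays, and each of the 7 groups had 2 arrays of separate cultures. GHMT/8 kPa cells grew on a soft gel and GHMT/126 kPa cells on a stiff one, to ask how the rigidity of the substrate alters expression. On 126 kPa, GHMT cells received lentiviral shYAP or shTAZ, against the mechanosensitive coactivators Yap1 and Wwtr1 (TAZ), or scramble shRNA. On 8 kPa, GHMT cells received YAP-5SA or TAZ-4SA, constitutively active forms of the same coactivators. All 7 groups carried GHMT, so that no array shows fibroblasts without the 4 factors, and each RNA came from a whole culture in which reprogrammed and other cells were mixed. In such bulk RNA, fewer cells of a type and less RNA per cell cannot be told apart.

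Each deposited value is a log2 ratio, which the authors computed apart for 3 sets of arrays. A value of 0 is the mean of the 2 GHMT/126 kPa arrays in the stiffness set and the mean of the 2 scramble arrays in the shRNA set, while what 0 stands for among the YAP-5SA and TAZ-4SA arrays is not given in the sources used here. A ratio carries no signal level, and thus neither the abundance of these transcripts nor the fibroblast identity of the cultures by level could be checked. Relative to GHMT/126 kPa, 14 fibroblast markers averaged -0.15 and -0.14 in the 2 GHMT/8 kPa arrays, and 0.06 and -0.06 in the 2 GHMT/126 kPa arrays. Differences are between group means on the log2 scale, tested with limma within a set, with p-values adjusted over all features and a threshold of 0.05. With 2 arrays a group, 2 or 3 residual degrees of freedom support each test.

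The 2 scramble arrays stood apart from each other. Scramble array 1 was at least 2-fold above scramble array 2 for 494 features and at least 2-fold below it for 77, and 19 macrophage and leukocyte markers were higher in array 1 by a median of 2.29. Of the 10 genes, 9 were lower and 1 was higher in scramble array 1, against 57.2% of all 22123 features lower there. Yap1 had -0.89 and -0.88 in the shYAP arrays, against -0.11 and 0.11 in the scramble arrays, and fell by 0.88 (adjusted p = 0.0498 from limma, SE 0.12). The call was lost without scramble array 1 (adjusted p = 0.0502) or either shYAP array (adjusted p = 0.304 and 0.268). Wwtr1 had -0.36 and -0.31 in the shTAZ arrays, against -0.25 and 0.25 in the scramble arrays, a difference of -0.34 (SE 0.17, adjusted p = 0.43) that did not pass and was -0.58 without scramble array 1 and -0.09 without scramble array 2. Its values in shTAZ and scramble arrays did not overlap.

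Matricellular proteins are secreted into the extracellular matrix, where they act on cells through integrins and other receptors and tune adhesion, matrix assembly and growth factor activity more than they bear load. Periostin, tenascin-C, the thrombospondins and SPARC belong to them, and all are known to rise in the injured heart and in activated fibroblasts. Fibronectin is the adhesive scaffold on which several of them assemble. Proteoglycans carry glycosaminoglycan chains: biglycan, decorin and lumican are small leucine-rich proteoglycans that bind collagen fibrils, whereas versican is a large hyaluronan-binding proteoglycan of loose, provisional matrix and of the developing heart.

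On the soft gel the set split. Vcan and Postn were 4.25-fold and 3.19-fold lower on 8 kPa than on 126 kPa between group means, Bgn and Thbs2 were about 1.5-fold lower, and the other 6 genes differed by less than 1.5-fold, with Dcn and Lum the highest. None of the 10 passed limma within the set, where 0.0721% of all features did, all of them lower. At an unadjusted p under 0.05 were 6 of the 10 genes, against 10.6% of all features. At least 2-fold lower were 2 of the 10, against 0.815% of all features, and at least 2-fold higher were 0 of the 10, against 0.315%. The arrays of the 2 groups did not overlap for any of the 10 genes, against 42.0% of all features, with 5 genes lower and 5 higher. The 10 genes were chosen with earlier results of these data known, so that these shares only describe them.

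Vcan, which encodes versican, had -2.23 and -1.95 in the 2 GHMT/8 kPa arrays, against 0.02 and -0.02 in the 2 GHMT/126 kPa arrays. Both soft cultures lay far below both stiff ones, and the gap between the soft cultures was small beside the gap between the groups. The difference was -2.09 (SE 0.16, 95% interval -2.50 to -1.68), which ranked 25th among the lowest of 22206 features. Its adjusted p was 0.0505, just outside the threshold.

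Postn, which encodes periostin, an integrin ligand that promotes collagen assembly and marks activated cardiac fibroblasts, had -1.67 and -1.68 on 8 kPa, against 0.07 and -0.07 on 126 kPa. The soft cultures gave nearly the same value and the groups did not overlap. The difference was -1.67 (SE 0.14, 95% interval -2.03 to -1.31, adjusted p = 0.0594 from limma), 49th among the lowest features.

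Bgn, the biglycan gene, had -0.69 and -0.54 on 8 kPa, against 0.13 and -0.13 on 126 kPa, a difference of -0.62 (SE 0.16, adjusted p = 0.331). Thbs2, which encodes thrombospondin-2, an inhibitor of angiogenesis that also affects collagen fibrils, had -0.61 and -0.60, against -0.05 and 0.05, a difference of -0.61 (SE 0.14, adjusted p = 0.268). Both genes were lower in each soft culture than in each stiff one, by amounts that did not pass the test over all features.

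The calls depended on the spread used by the test. With the spread taken from 1 fit to all 14 arrays, 3 of the 10 genes passed as lower on 8 kPa, against 1.55% of all features in either direction: Postn (adjusted p = 0.0109), Vcan (adjusted p = 0.0165) and Bgn (adjusted p = 0.0495). Thbs2 did not pass there (adjusted p = 0.107). Vcan also passed within the set once every array was centred on its median (adjusted p = 0.0472) and when only features with a gene symbol were tested (adjusted p = 0.0401). It did not pass in limma with the replicate number as a block (adjusted p = 0.173), robust moderation (0.0549) or array weights (0.0511). Postn passed in none of these settings within the set. With any single array left out, no feature on the whole array passed in this comparison, while the difference of Vcan stayed between -2.23 and -1.95 and that of Postn between -1.74 and -1.60.

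The upstream sequences of the 4 genes that were lower together on 8 kPa are shown because they are the stretches in which shared letters could be looked for. Upstream windows of 250 bases from RefSeq (GRCm38.p6) were at hand for 6 of the 10 genes, in 8 windows since Postn and Tnc have a pair of starts each: Postn, Tnc, Thbs2, Sparc, Bgn and Vcan, and not for Thbs1, Fn1, Dcn and Lum. Each is written 5′ to 3′ on the strand of the gene and ends at the base before the transcription start. Capitals mark a TATA box (TATAAA, or TTTATA on the other strand) or a GC box (GGGCGG, or CCGCCC on the other strand). A match that overlaps one already marked on the same strand is left in lower case.
Vcan (chr13:89742513-89742762, minus strand): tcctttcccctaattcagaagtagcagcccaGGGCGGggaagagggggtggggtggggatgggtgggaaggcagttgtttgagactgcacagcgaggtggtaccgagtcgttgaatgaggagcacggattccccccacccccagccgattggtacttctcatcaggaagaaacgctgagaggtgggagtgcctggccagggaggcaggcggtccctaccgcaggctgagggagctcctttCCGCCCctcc
Bgn (chrX:73483351-73483600, plus strand): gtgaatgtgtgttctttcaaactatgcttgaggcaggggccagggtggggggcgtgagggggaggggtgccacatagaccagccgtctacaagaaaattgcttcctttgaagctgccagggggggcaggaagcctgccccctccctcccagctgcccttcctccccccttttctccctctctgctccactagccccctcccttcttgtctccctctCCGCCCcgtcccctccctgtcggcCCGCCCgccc
Postn, the downstream of its 2 starts (chr3:54360857-54361106, plus strand): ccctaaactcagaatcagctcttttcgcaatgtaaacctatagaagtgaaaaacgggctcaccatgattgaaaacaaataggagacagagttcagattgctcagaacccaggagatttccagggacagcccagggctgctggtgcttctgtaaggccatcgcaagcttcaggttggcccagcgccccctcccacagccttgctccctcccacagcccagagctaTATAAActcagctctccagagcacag
Thbs2 (chr17:14694263-14694512, minus strand): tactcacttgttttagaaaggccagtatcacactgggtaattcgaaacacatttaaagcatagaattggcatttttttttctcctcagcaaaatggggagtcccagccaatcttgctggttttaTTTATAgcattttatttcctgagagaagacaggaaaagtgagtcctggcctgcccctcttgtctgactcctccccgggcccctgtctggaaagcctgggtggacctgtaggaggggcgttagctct

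The 4 windows differ in kind. Vcan and Bgn are rich in G and C (62.4% and 64.4% of bases). Counted without overlap, they hold 2 GC boxes each. These begin 219 and 10 bases before the start in Vcan and 34 and 10 bases before it in Bgn. Postn (52.0% G and C) has a TATA box that begins 26 bases before its downstream start. The window of its upstream start, not shown, has 40.4% G and C and neither box. Thbs2 (46.8%) has only a match of the TATA letters on the other strand, at 126 bases. A GC box stood in 4 of the 8 windows, against 32.7% of 32851 windows of the same length in the table, and a TATA box in 4 of the 8, against 12.4%; the 2 windows of Tnc overlap and share 1 box of each kind. The core motif of TEAD factors, the DNA-binding partners of YAP and TAZ (GGAATG on either strand, in 12.6% of all windows), and the AP-1 motif (TGACTCA on either strand, in 4.46%) were in none of the 8. That says only that these letters are not in these windows. Boxes were counted without overlap. In Bgn the box at 10 bases overlaps 1 further GC box match, which ends at the last base of the window and was not counted.

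Thbs1, which encodes thrombospondin-1, an activator of latent TGF-β and itself a common target of YAP, had -0.17 and -0.25 on 8 kPa, against 0.01 and -0.01 on 126 kPa. The difference was -0.21 (SE 0.13, 95% interval -0.55 to 0.13, adjusted p = 0.645). Fn1, the fibronectin gene, had 0.05 and 0.09, against -0.03 and 0.03, a difference of 0.07 with an interval of -0.27 to 0.42. Thus neither the adhesive scaffold gene nor thrombospondin-1 showed a change beyond the error of the test, and a fold of 1.5 in Fn1 on either side lay outside its interval.

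Sparc, a collagen-binding regulator of matrix assembly, had 0.11 and 0.11 on 8 kPa, against 0.09 and -0.09 on 126 kPa (difference 0.11, SE 0.14). Tnc, which encodes tenascin-C, an anti-adhesive glycoprotein of wounds and embryonic matrix, had 0.17 and 0.26, against -0.0036 and 0.0036 (difference 0.21, SE 0.14, adjusted p = 0.639). The groups of both genes were apart, yet within the error of the test.

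Dcn and Lum lay at the upper end. Dcn, whose product decorin binds collagen and sequesters TGF-β, had 0.40 and 0.43 on 8 kPa, against 0.01 and -0.01 on 126 kPa, a difference of 0.41 (SE 0.13, adjusted p = 0.4). Lum, the lumican gene, had 0.62 and 0.45, against 0.03 and -0.03, a difference of 0.53 (SE 0.14, adjusted p = 0.341). Dcn and Lum are neighbouring genes in the RefSeq annotation. Both soft cultures exceeded both stiff cultures for each gene, but neither gene passed over all features.

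From the lowest to the highest difference the order was Vcan, Postn, Bgn, Thbs2, Thbs1, Fn1, Sparc, Tnc, Dcn and Lum. Bgn and Thbs2, Fn1 and Sparc, Sparc and Tnc, and Dcn and Lum were closer together than the larger of their 2 standard errors, whereas the other 5 neighbours in that order were further apart. Biglycan and decorin, close relatives in structure, therefore stood on opposite sides of 0.

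**Figure D1:**
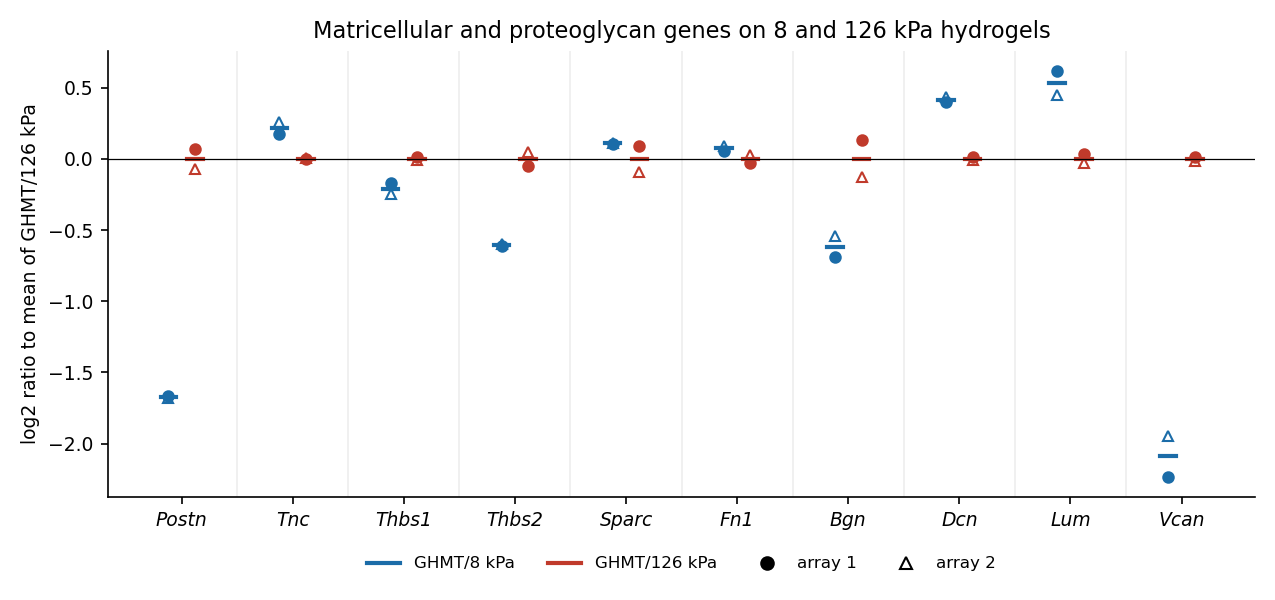
Log2 ratios of the 10 genes to the mean of GHMT/126 kPa (vertical axis) in each array, GHMT/8 kPa left and GHMT/126 kPa right for each gene. Circles and triangles are arrays 1 and 2 and bars are group means; Vcan (-2.23 and -1.95) and Postn (-1.67 and -1.68) lie far below the stiff arrays, and Dcn and Lum above them.

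Markers of some other cell types moved in the same comparison. On 8 kPa 18 of the 19 markers of macrophages and leukocytes lay below 0 (median -1.40), and 4 of them were among the 16 features past the test. Averaged over the list, the markers had -1.55 and -1.47 in the 8 kPa arrays, against 0.08 and -0.08 in the 126 kPa arrays. Of 8 smooth muscle and myofibroblast markers 7 lay below 0 (median -0.43), as did 10 of the 14 fibroblast markers (median -0.14), although single markers of both lists differed upward by as much as 1.02 and 1.32. Endothelial markers lay the other way, 7 of 9 above 0 (median 0.22), with 3 at an unadjusted p under 0.05 and 0 past the test. Cardiomyocyte markers lay on both sides of 0 (4 above and 6 below, median -0.07), as did cartilage markers (4 and 4, median 0.05). In both lists 0 passed. The part of these cell types in the differences of Vcan and Postn was not tested.

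Around the 10 genes, other families of the same matrix were examined by list (all features: median difference 0.03 on 8 kPa, with 12367 above 0 and 9839 below). Of 13 other small leucine-rich proteoglycans, the family of Bgn, Dcn and Lum, 12 were below 0 and 1 above, with a median of -0.35, and 0 passed limma, although 6 had an unadjusted p under 0.05, all lower. The largest differences were those of Fmod, which encodes the collagen-binding fibromodulin (-1.12, SE 0.15, adjusted p = 0.124), and Epyc, the epiphycan gene of cartilage (-0.82, SE 0.14, adjusted p = 0.172). Dcn and Lum, at 0.41 and 0.53, were thus above every one of these 13 relatives, whose highest value was 0.02.

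Of 14 cell surface and basement membrane proteoglycans, 13 were below 0 and 1 above, with a median of -0.31, and 0 passed (4 at an unadjusted p under 0.05, all lower). Tgfbr3, which encodes betaglycan, a coreceptor for TGF-β, differed by -1.26 (SE 0.15, adjusted p = 0.0931), and with the spread of all 14 arrays it passed (adjusted p = 0.0345). The syndecan gene Sdc3 differed by -0.90 (SE 0.16, adjusted p = 0.184).

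Among 21 other matricellular and adhesive glycoproteins, 14 were below 0 and 7 above (median -0.17), and 0 passed (4 lower and 1 higher at an unadjusted p under 0.05). Their largest differences were those of Thbs3, a thrombospondin gene, at -0.61 (SE 0.17), and of the matrilin gene Matn2, at 0.60 (SE 0.15). Of 11 other lectican, hyaluronan synthesis and hyaluronan binding genes, partners of versican, 6 were above 0 and 5 below (median 0.04). The largest differences there were those of the brevican gene Bcan, at -0.42 (SE 0.18), and of the hyaluronan synthase gene Has2, at -0.34 (SE 0.17). In this list 0 passed and 0 had an unadjusted p under 0.05.

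Of 16 genes for receptors, mostly integrin subunits and thrombospondin receptors, 10 were below 0 and 6 above (median -0.10), and 0 passed. At an unadjusted p under 0.05 were 4 lower and 2 higher, against 10.6% of all features. The highest difference was that of Itga8, an integrin subunit gene, at 0.70 (SE 0.14, adjusted p = 0.238), named after its value was seen. Itgb3, whose product pairs with the αv integrin that binds periostin, fibronectin and thrombospondins, differed by -0.87 (SE 0.16, adjusted p = 0.21), and Egfr, a receptor engaged by tenascin-C and decorin, by -0.72 (SE 0.15, adjusted p = 0.238). With the spread of all 14 arrays both passed as lower, at adjusted p-values of 0.0481 and 0.0499.

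Of 8 proteases that cut versican or matrix propeptides, 5 were below 0 and 3 above (median -0.09), and 0 passed (2 at an unadjusted p under 0.05, both lower). The versican-cleaving enzymes Adamts9 and Adamts1 differed by -1.12 (SE 0.18, adjusted p = 0.158) and -0.68 (SE 0.14, adjusted p = 0.233), and Adamts9 passed as lower with the spread of all 14 arrays (adjusted p = 0.0225). Of 19 genes for glycosaminoglycan chain synthesis, 11 were above 0 and 8 below (median 0.08), and 0 passed (1 lower and 1 higher at an unadjusted p under 0.05). Ugdh, which makes the UDP-glucuronic acid used in those chains, differed by 0.73 (SE 0.14, adjusted p = 0.215) and passed as higher in the 14-array fit (adjusted p = 0.0207). B3galt6, which adds a galactose of the linker to the core protein, differed by -0.49 (SE 0.16).

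**Figure D2:**
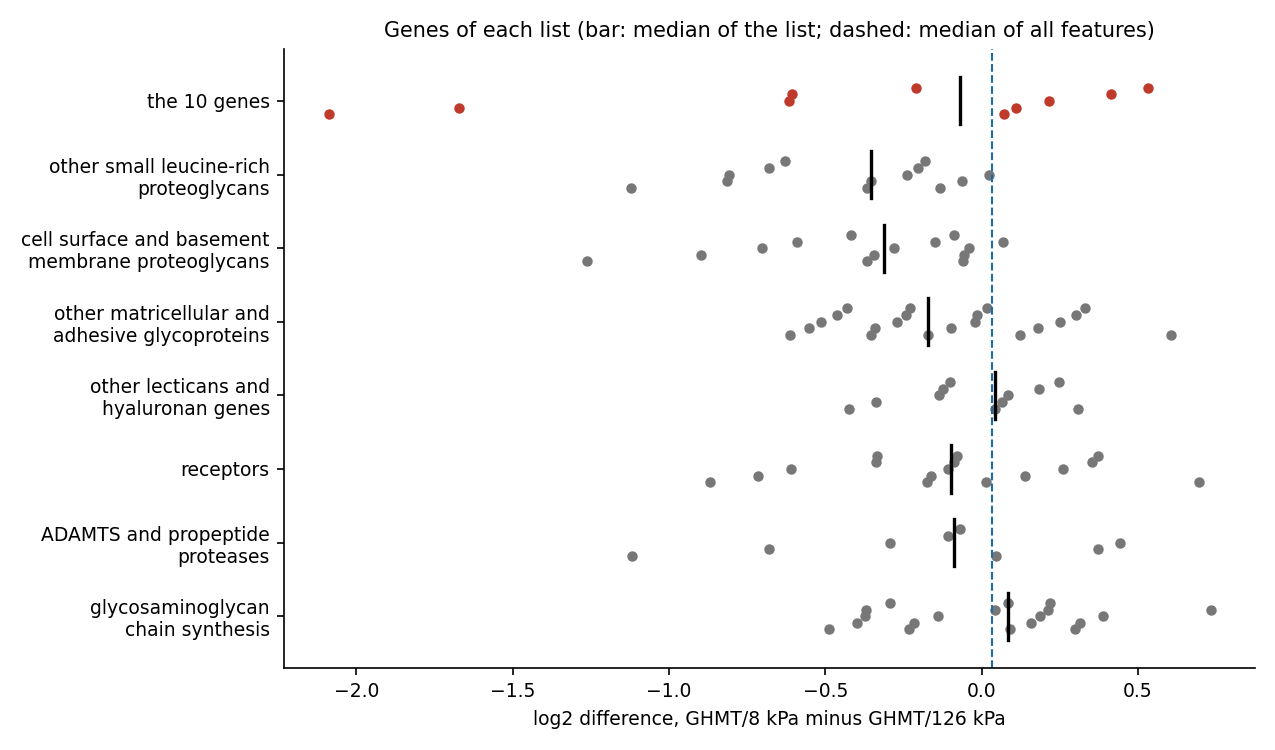
Log2 difference of each gene between GHMT/8 kPa and GHMT/126 kPa (horizontal axis) for the 10 genes, in red, and 7 lists of related matrix genes, in grey. Black bars are list medians and the dashed line is the median of all features, 0.03; Vcan and Postn lie below every gene of the other lists, and 12 of 13 other small leucine-rich proteoglycans lie below 0.

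Knockdown of YAP or TAZ on the stiff gel asked whether loss of either coactivator changed the same genes. The 10 genes spanned a narrower range of differences than on the soft gel, from -0.50 to 0.45 with shYAP and from -0.62 to 0.33 with shTAZ, and none was 2-fold. The narrowing was not confined to Vcan and Postn. Bgn differed by -0.62 on 8 kPa, against -0.06 with shYAP and -0.11 with shTAZ. In the same order, Lum had 0.53, against 0.26 and 0.25, and Thbs2 had -0.61, against 0.41 and 0.13. Other differences were larger in size than on 8 kPa (0.41, 0.07 and 0.11): Dcn with shYAP (0.45), Fn1 with both shRNAs (-0.17 and -0.12) and Sparc with shTAZ (0.13). With shYAP 0 of 10 passed limma, against 0.533% of all features, and 1 had an unadjusted p under 0.05, against 18.8%. With shTAZ 0 of 10 passed, as did 0 of 22122 features (0%), and 1 of the 10 had an unadjusted p under 0.05, against 3184 features (14.4%). The groups did not overlap for 6 of 10 genes with shYAP (50.6% of all features) and for 5 of 10 with shTAZ (46.5%). With the spread of all 14 arrays 0 of 10 passed in either comparison, against 2.57% of features with shYAP and 1.77% with shTAZ. Both comparisons use the same scramble arrays.

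Postn had -0.69 and -0.30 with shYAP and -0.21 and -0.91 with shTAZ, against -0.12 and 0.12 with scramble shRNA. All 4 knockdown arrays were below both scramble arrays, but the shTAZ replicates were further apart than the group means. The difference was -0.50 with shYAP (SE 0.25, 95% interval -1.11 to 0.12, adjusted p = 0.344) and -0.56 with shTAZ (SE 0.25, 95% interval -1.17 to 0.06, adjusted p = 0.388). With 1 array left out, it ran from -0.69 to -0.30 with shYAP (lowest and highest without shYAP array 2 and array 1) and from -0.91 to -0.21 with shTAZ (without shTAZ array 1 and array 2).

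Vcan had 0.21 and 0.28 with shYAP and -0.37 and -0.88 with shTAZ, against -0.54 and 0.54 with scramble shRNA. The scramble arrays spanned 1.07, the widest gap among the 10 genes, so that both knockdowns overlapped them. The difference was 0.24 with shYAP (SE 0.35, adjusted p = 0.734) and -0.62 with shTAZ (SE 0.35, adjusted p = 0.468). Which scramble array was used set the value: without scramble array 1 Vcan differed by -0.29 with shYAP and by -1.16 with shTAZ, and without scramble array 2 by 0.78 and by -0.09.

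Dcn had 0.48 and 0.42 with shYAP and 0.31 and 0.35 with shTAZ, against -0.17 and 0.17 with scramble shRNA. Every knockdown array was above both scramble arrays. The difference was 0.45 with shYAP (SE 0.14, adjusted p = 0.171) and 0.33 with shTAZ (SE 0.14, adjusted p = 0.34), and Dcn was the gene of the 10 at an unadjusted p under 0.05 in both. Lum followed with 0.26 and 0.26 with shYAP and 0.21 and 0.28 with shTAZ, against -0.15 and 0.15, differences of 0.26 and 0.25 (SE 0.13 each). These sizes hung on the scramble array used: without scramble array 1 and without scramble array 2, Lum differed by 0.11 and 0.41 with shYAP and by 0.095 and 0.40 with shTAZ, and Dcn by 0.16 and 0.50 with shTAZ.

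Thbs2 had 0.40 and 0.42 with shYAP and 0.25 and 0.02 with shTAZ, against -0.28 and 0.28 with scramble shRNA. Its difference was 0.41 with shYAP (SE 0.19, adjusted p = 0.309), where the groups were apart, and 0.13 with shTAZ (SE 0.19), where they overlapped. Without scramble array 2, the one with lower macrophage markers, Thbs2 and Dcn passed as higher with shYAP (0.69, adjusted p = 0.0376, and 0.62, adjusted p = 0.0298), as did 1937 of 22122 features in all. Without scramble array 1, their differences were 0.14 and 0.29 and neither passed.

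Fn1 had -0.19 and -0.15 with shYAP and -0.11 and -0.13 with shTAZ, against 0.03 and -0.03 with scramble shRNA, differences of -0.17 and -0.12 (SE 0.10 each). Its scramble arrays were the closest of the 10 genes, and its knockdown arrays were below both. The other 4 genes stayed within 0.16 of scramble in either direction: Thbs1 differed by -0.16 with shYAP and -0.10 with shTAZ, Bgn by -0.06 and -0.11, Tnc by 0.03 and 0.13, and Sparc by 0.09 and 0.13. The SE of these 8 values was 0.10 to 0.13.

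Set against each other, shYAP and shTAZ separated 1 of the 10 genes at an unadjusted p under 0.05, against 8.10% of all features, and 0 of 10 passed, against 0.0452%. The gene was Vcan, with 0.21 and 0.28 in the shYAP arrays and -0.37 and -0.88 in the shTAZ arrays. Every shYAP array was above every shTAZ array, and the difference of 0.87 (SE 0.35, 95% interval 0.03 to 1.71, adjusted p = 0.61) ranked 124th among the highest of 22122 features. This comparison does not use the scramble means, although the scramble arrays still enter its SE. The groups were apart for 6 of 10 genes, against 44.1% of all features, and 0 of 10 passed with the spread of all 14 arrays, against 0.181%. The other 9 genes differed by 0.28 or less in size, and for Postn the difference was 0.06 (95% interval -0.55 to 0.67).

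**Figure D3:**
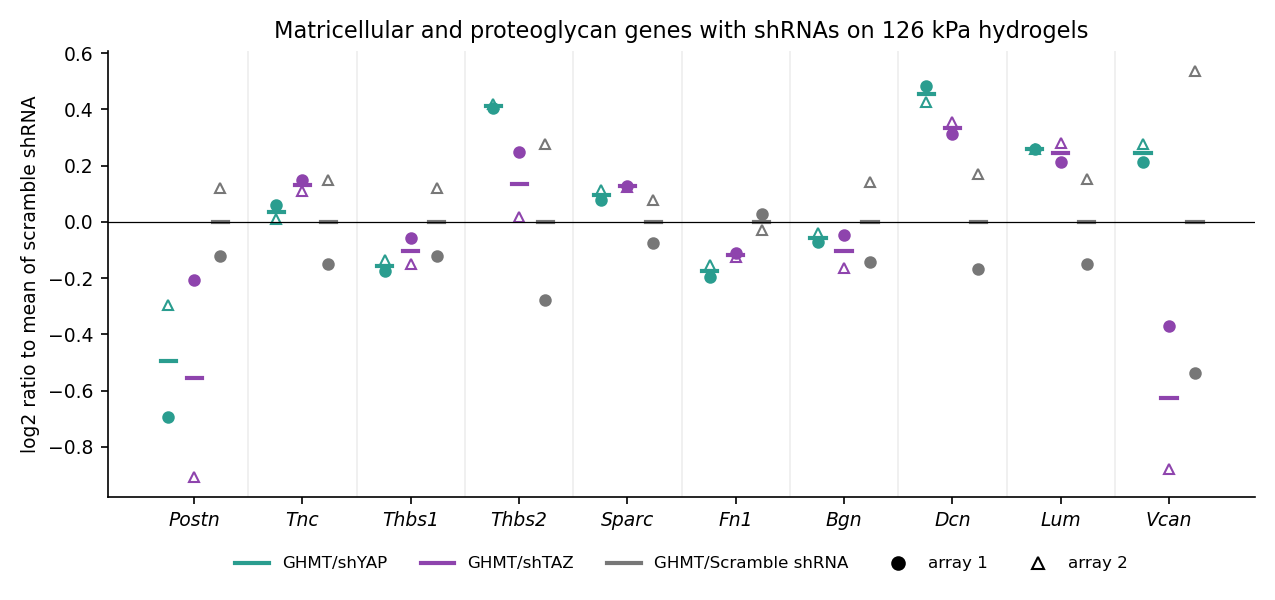
Log2 ratios of the 10 genes to the mean of scramble shRNA (vertical axis) in each array on 126 kPa, with shYAP, shTAZ and scramble shRNA from left to right for each gene. Circles and triangles are arrays 1 and 2 and bars are group means; all knockdown arrays of Postn lie below and those of Dcn above both scramble arrays, and the scramble arrays of Vcan lie at -0.54 and 0.54.

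Macrophage and leukocyte markers also differed here: averaged over the 19 genes they had -2.16 and -3.46 with shYAP and -4.69 and -4.54 with shTAZ, against 1.09 and -1.09 with scramble shRNA. With each shRNA 18 of the 19 markers lay below 0. Of 10 cardiomyocyte markers, 9 lay above 0 with each shRNA, and with shYAP 6 passed as higher and 1 as lower. The part of these shifts in the values of the 10 genes was not tested.

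Among the related lists, 1 gene passed with shYAP and 0 with shTAZ. Tnn, which encodes tenascin-N, a paralogue of tenascin-C, fell by 2.02 (SE 0.26, adjusted p = 0.0447 from limma), while Tnc differed by 0.03. That call was lost without either shYAP array (adjusted p = 0.302 and 0.262). The largest other difference among these glycoproteins was that of Smoc1, a SPARC-related gene, at 1.10 (SE 0.21, adjusted p = 0.0908), and without scramble array 2 it passed as higher (adjusted p = 0.00822). Of the 21 other matricellular and adhesive glycoproteins, 17 were above 0 with shYAP and 15 with shTAZ, against 12951 and 13057 of 22122 features. Averaged over these 21, the arrays had 0.20 and 0.14 with shYAP and 0.21 and 0.15 with shTAZ, against -0.18 and 0.18 with scramble shRNA. All knockdown arrays thus lay near scramble array 2 and above scramble array 1. Of the 13 other small leucine-rich proteoglycans, of which 12 were below 0 on 8 kPa, 10 were above 0 with shYAP (median 0.24) and 11 with shTAZ (median 0.29). Beside these stand the same 12951 and 13057 of 22122 features. Averaged over that list, the arrays had 0.30 and 0.26 with shYAP and 0.50 and 0.24 with shTAZ, against -0.25 and 0.25 with scramble shRNA. Scramble array 2 lay close to both shYAP arrays and to shTAZ array 2. In that list 2 genes with shYAP, both higher, and 4 with shTAZ, 3 of them higher, had an unadjusted p under 0.05. Of all features 18.8% and 14.4% did.

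Active YAP and active TAZ were compared with each other on the soft gel. Among the 10 genes the differences of YAP-5SA minus TAZ-4SA ran from -0.74 to 0.42. None passed, against 0.895% of all features, while 3 had an unadjusted p under 0.05, against 13.5%. The groups were apart for 6 of 10 genes, against 45.7%, and 0 of 10 passed with the spread of all 14 arrays, against 2.47%.

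The 2 thrombospondins went opposite ways. Thbs2 had -0.52 and -0.30 with YAP-5SA, against 0.21 and 0.14 with TAZ-4SA, a difference of -0.58 (SE 0.15, 95% interval -0.94 to -0.22, adjusted p = 0.171). Thbs1 had 0.12 and 0.08 with YAP-5SA, against -0.26 and -0.38 with TAZ-4SA, a difference of 0.42 (SE 0.14, 95% interval 0.08 to 0.75, adjusted p = 0.274). For both genes the 2 groups were apart, and for neither did the difference pass over all features.

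Vcan had -1.33 and -0.36 with YAP-5SA, against -0.16 and -0.05 with TAZ-4SA, a difference of -0.74 (SE 0.30, adjusted p = 0.351). Its YAP-5SA arrays were further apart than the group means, and the difference was -1.23 without YAP-5SA array 2, which passed (adjusted p = 0.0126), and -0.26 without YAP-5SA array 1. The same 2 arrays differed in macrophage and leukocyte markers, which averaged -2.60 and -0.88 with YAP-5SA, against -1.96 and -2.49 with TAZ-4SA. The part of those cells was not tested.

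Postn had 0.17 and -0.35 with YAP-5SA, against -0.07 and -0.46 with TAZ-4SA. The groups overlapped and the difference was 0.17 (SE 0.22, 95% interval -0.36 to 0.71). Lum had 1.13 and 0.65, against 0.78 and 0.54, and Dcn had 0.58 and 0.43, against 0.69 and 0.56, so that both genes overlapped between the mutants. The remaining 5 genes (Tnc, Bgn, Sparc, Fn1 and Dcn) differed by -0.14 to 0.03, each with an SE of 0.14 to 0.15.

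Relative to the reference of their own set, the 4 mutant arrays had values of Dcn and Lum above 0 (0.43 to 1.13) and values of Bgn below 0 (-0.22 to -0.09). Postn lay on both sides of 0 (-0.46 to 0.17) and Vcan was below 0 in all 4. Because that reference is not known here, these values cannot be set against the -1.67 and -1.68 of Postn or the -2.23 and -1.95 of Vcan on 8 kPa without mutants, and no test was made between them.

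**Figure D4:**
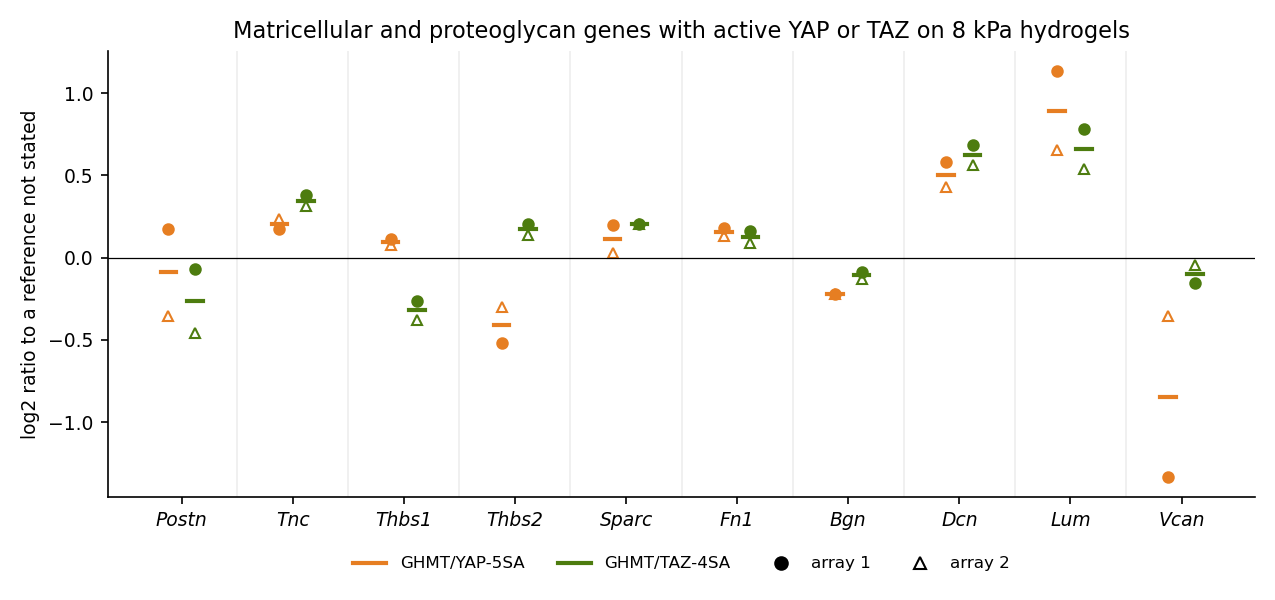
Log2 ratios of the 10 genes (vertical axis) in each array on 8 kPa, with YAP-5SA left and TAZ-4SA right for each gene; 0 is a reference that is not given in the sources used here. Circles and triangles are arrays 1 and 2 and bars are group means; Thbs2 lies lower and Thbs1 higher with YAP-5SA, and the YAP-5SA arrays of Vcan lie at -1.33 and -0.36.

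The related genes that separated the mutants past the test were not among the 10. Epyc was lower with YAP-5SA than with TAZ-4SA by a difference of -3.08 (SE 0.17, adjusted p = 0.00659 from limma). Ecm2, another leucine-rich matrix gene, differed by -2.29 (SE 0.17, adjusted p = 0.00753), and Ncan, which encodes neurocan, a lectican like versican, by -2.17 (SE 0.16, adjusted p = 0.0075). Chst15, which adds a sulfate to chondroitin chains, was higher with YAP-5SA by 1.10 (SE 0.14, adjusted p = 0.0323), a call lost without TAZ-4SA array 1 (adjusted p = 0.086). Of the 13 other small leucine-rich proteoglycans, 9 were below 0 with YAP-5SA (median -0.31), as were 11388 of 22127 features, and 2 passed as lower. Of 8 cartilage markers, 7 were below 0 (median -0.68) and 1 passed as lower. Their part in the values of Epyc and its relatives was not tested. In these arrays 10 cardiomyocyte markers averaged -2.79 and -2.85 with YAP-5SA, against -1.45 and -1.44 with TAZ-4SA.

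**Figure D5:**
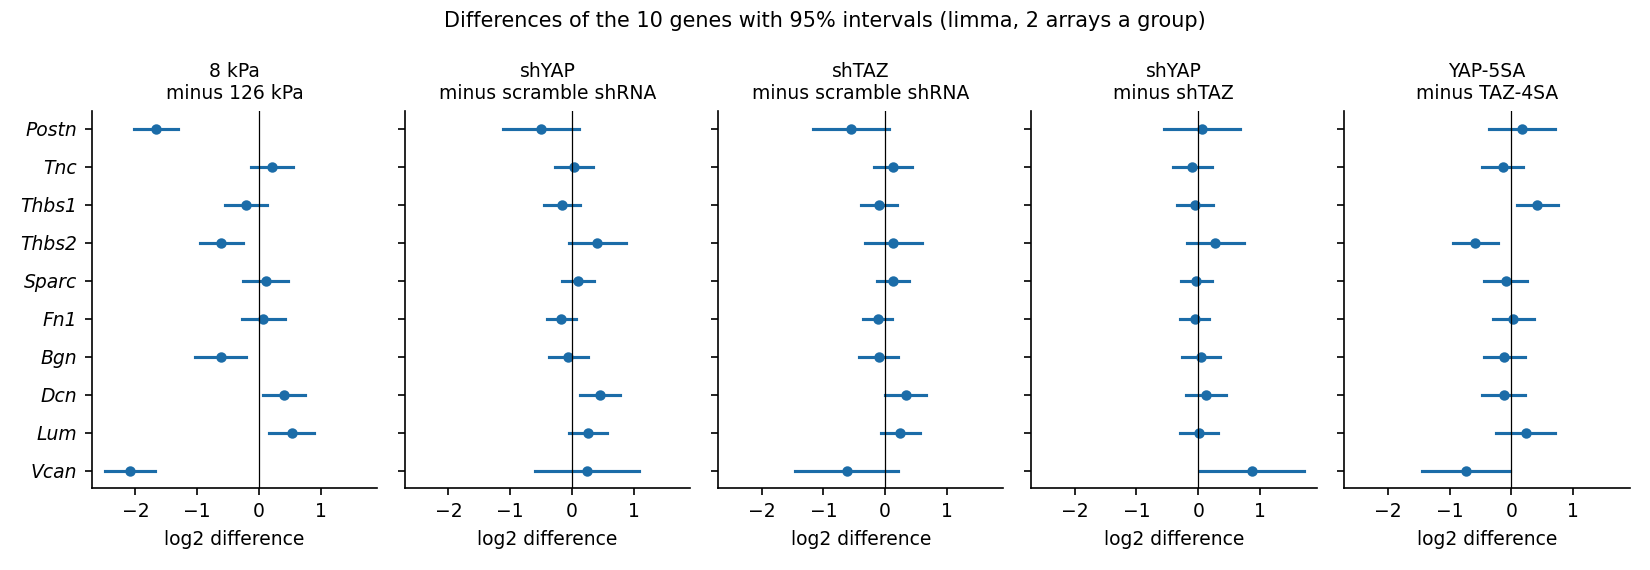
Log2 differences of the 10 genes (horizontal axis) in the 5 comparisons, with 95% intervals from limma (2 arrays a group). The intervals of Vcan and Postn lie furthest from 0 on 8 kPa, and those of Vcan are the widest of the 10 genes in the 3 shRNA comparisons.

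Across the 14 arrays, each gene was centred on its mean within each set and pairs of genes were correlated, as a description over arrays that share groups and references. The highest Pearson r among the 45 pairs was that of Bgn and Vcan (r = 0.88, Spearman rho = 0.94), followed by Postn and Bgn (r = 0.86, rho = 0.73), Thbs2 and Vcan (r = 0.85, rho = 0.81) and Dcn and Lum (r = 0.77, rho = 0.80). Without the 2 GHMT/8 kPa arrays these 4 values were 0.81, 0.77, 0.81 and 0.72. The centring still held those 2 arrays, so that no r given without them takes out the difference between the gels. Whether these genes vary together apart from that difference was not tested. The lowest were those of Lum with Vcan (r = -0.70) and of Dcn with Postn (r = -0.67). The highest r of Fn1 was 0.19, with Thbs1, and its lowest was -0.64, with Thbs2 (-0.61 without the 2 GHMT/8 kPa arrays). Postn and Vcan, the 2 genes lowest on the soft gel, had r = 0.70, and 0.51 without the 8 kPa arrays.

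The named genes most like Postn over the 14 arrays were Pros1, which encodes anticoagulant protein S (r = 0.94), Scgb2b7 (r = 0.94), Rex2 (r = 0.94), the vomeronasal receptor gene Vmn2r42 (r = 0.92) and Actg2, the smooth muscle gamma actin gene (r = 0.92). Without the 2 GHMT/8 kPa arrays, which lay furthest from the median of Postn, r was 0.87 to 0.92 for these 5. The centring again held those 2 arrays, so that these values do not take out the difference between the gels. By Spearman rho 4 of the 5 stayed among the first 5 named genes, and Actg2 came 8th. Scgb2b7 and Vmn2r42 belong to multigene families, so that their features may also read relatives.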

How the data were processed

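RNA of 14 cultures (7 groups, 2 arrays each) was hybridised to Clariom S Mouse arrays. Scans were processed by the authors in Expression Console 1.4 (Affymetrix), and the values deposited are log2 ratios in 3 sets with a reference each, so that fits and comparisons stayed within a set. Signal levels are not in the ratios, and no dim feature was removed. All 14 columns of per-sample values were mapped to samples by title. Gene symbols came from the platform annotation (19572 features with 1 symbol, 2634 with none).

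Differences were tested with limma 3.58.1 (R 4.3.3; lmFit and eBayes, no covariate) over features measured on all arrays of the set, which left 22206 (stiffness), 22122 (shRNA) and 22127 (mutant). Residual degrees of freedom were 2, 3 and 2. P-values were adjusted by Benjamini-Hochberg over all of them. The code was tested on simulated data. Precision is limited by the number of arrays. The p-values rest on the spread between the 2 cultures of each group, pooled over the groups of a set and moderated over all features. The members and the gene lists were chosen with earlier results of these data known. Named were all 10 members, the 2 largest differences of a list in at most 2 comparisons, every gene of the related lists past the test, the 5 named genes most like Postn, Yap1 and Wwtr1. Marker lists, whose genes past the test the rule also names, are given as counts. Spp1, Efemp2, Ecm1, Tsku, Chpf2, Pdgfra, Cd68 and Egfl7 of the lists were not analysed here. Alternatives were array centring, the replicate number as a block, 1 fit to all 14 arrays, 2 groups only, features with a symbol only, robust moderation, array weights and each array left out.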

Additional observations from a re-analysis of the deposited data

How the results depend on the processing

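Of 530 values of the 10 genes under other settings (50 differences), 506 kept their direction and their side of the threshold, 16 reversed and 8 crossed the threshold. Of 224 values of the other named genes, 206 kept both, 0 reversed and 18 crossed. Except for Tnc with shYAP, at -0.011 once arrays were centred, every reversal came from leaving out 1 array: with shYAP Tnc ranged from -0.11 to 0.18, Vcan from -0.29 to 0.78 and Bgn from -0.20 to 0.085; with shTAZ Tnc ranged from -0.020 to 0.28, Thbs2 from -0.14 to 0.41, Thbs1 from -0.22 to 0.018 and Bgn from -0.25 to 0.037. For shYAP minus shTAZ Postn ranged from -0.29 to 0.41, Lum from -0.023 to 0.047 and Bgn from -0.010 to 0.11, and for YAP-5SA minus TAZ-4SA Postn ranged from -0.092 to 0.44, Lum from -0.0053 to 0.48 and Fn1 from -0.0064 to 0.065. Members past the test on 8 kPa numbered 1 after centring, 3 with the spread of all 14 arrays and 1 over features with a symbol. With arrays left out they numbered 0 to 2 with shYAP and 0 to 1 for YAP-5SA minus TAZ-4SA, and members 2-fold apart 0 to 1 with shTAZ, for shYAP minus shTAZ and for YAP-5SA minus TAZ-4SA.

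Features past the test with the spread of all 14 arrays numbered 342 on 8 kPa, 568 with shYAP, 392 with shTAZ, 40 for shYAP minus shTAZ and 547 for YAP-5SA minus TAZ-4SA, against 16, 118, 0, 10 and 198 within sets. With the replicate number as a block (replicate block) they numbered 0 on 8 kPa, 31 with shYAP and 1 for shYAP minus shTAZ, and among the named genes it ended the calls of Yap1 and Tnn with shYAP (adjusted p = 0.0887 and 0.0833 from limma); same-numbered deviations correlated at 0.05 on 8 kPa, -0.02 to 0.20 among the shRNA groups and 0.15 between the mutants, so that the number was not taken as a pairing. In the shYAP comparison 2 passed from the arrays of both groups alone and 62 with array weights, which gave 27 for shYAP minus shTAZ, and 9 passed with shTAZ under robust moderation. With arrays left out they numbered 0 to 0 on 8 kPa, 0 to 1937 with shYAP, 0 to 1632 with shTAZ, 0 to 0 for shYAP minus shTAZ and 143 to 881 for YAP-5SA minus TAZ-4SA. The larger counts with the shRNAs came without scramble array 2. Where 1 group was left with 1 array, its spread was taken to be that of the other groups. In the same comparison the calls of Yap1 and Tnn also ended with 2 groups only (adjusted p = 0.151 and 0.128 from limma) and with array weights (0.0656 and 0.0558). The causes were not tested.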
